A study of Mus musculus with 5 samples.

Results

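Small nucleolar RNAs (snoRNAs) are short nuclear RNAs, and the 62 genes described here are those of the table's 16422 tested genes that are typed as snoRNA or have a symbol starting with Snora or Snord. From 66 such rows, 2 in an imprinted stretch of chromosome 12 and 2 on chromosome X were left out. By the class named in each gene's description, 38 are C/D box genes and 24 are H/ACA box genes, and they lie on 18 chromosomes. RefSeq lists 1340 snoRNA genes on GRCm38, and those without a row in the table were not analysed here.

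The libraries are nuclear RNA of mouse retina. All animals carried the genotype given as Aldhl1l-Cre/Ert2+; NuTRAP+, a tamoxifen-induced Cre recombinase driven by the promoter of the glial gene Aldh1l1 with a Cre-dependent reporter that tags nuclei with biotin. No age is given in the labels, and both fractions share the genotype and the induction. Both retinae of an animal made up a sample, and undissociated tissue had been spun out of it. Input is the set-aside part of the nuclear suspension (animals 40 and 55, n = 2), and Positive is what streptavidin beads captured from the rest (animals 12, 40 and 55, n = 3). The series' design text names the Positive nuclei as those of Müller glia. An Input library of animal 12 was not analysed here. Values are deposited log2 values relative to each gene's Input level, so that 1 of the Input libraries is exactly 0 in 61 of the 62 genes. They carry no expression level, and the depth behind them is unknown.

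C/D box snoRNAs carry short conserved boxes named C and D near their ends and guide 2'-O-methylation of ribosomal and other RNAs. H/ACA box snoRNAs end in a box with the letters ACA and guide the isomerisation of uridine to pseudouridine. In mammals most of them are cut out of the introns of host genes, many of which encode ribosomal proteins, translation factors or nucleolar proteins, while other hosts (the Snhg genes and Gas5) make no known protein. The mature particle assembles around fibrillarin, Nop56, Nop58 and Snu13 for C/D RNAs, and around dyskerin, Nhp2, Nop10 and Gar1 for H/ACA RNAs.

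The sequences below are the GENCODE M21 transcripts (build GRCm38) of 9 of the 11 genes that passed the low-value filter in both fractions and in which the Positive and Input libraries did not overlap. In C/D genes, capitals mark TGATGA (the core of the C box) in the first 20 bases and CTGA (the D box) in the last 20. In H/ACA genes, capitals mark ACA in the last 8 bases. The first 4 are the C/D genes whose Positive libraries all lay above both Input libraries, at chr2:167065276-167065365 (plus strand), chr11:78181686-78181756 (minus), chr4:132310691-132310764 (plus) and chr11:106500993-106501062 (plus) in that order.
Snord12: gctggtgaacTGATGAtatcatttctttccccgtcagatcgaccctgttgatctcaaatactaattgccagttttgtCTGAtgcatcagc
Snord4a: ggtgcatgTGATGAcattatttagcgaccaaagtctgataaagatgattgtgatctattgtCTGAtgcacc
Snord99: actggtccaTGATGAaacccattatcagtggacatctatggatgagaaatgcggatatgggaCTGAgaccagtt
Snord104: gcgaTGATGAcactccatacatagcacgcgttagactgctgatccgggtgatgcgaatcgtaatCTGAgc

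The next 2 are C/D genes whose Positive libraries all lay below both Input libraries, at chr7:59978808-59978874 (minus strand) and chr16:23108953-23109021 (plus).
Snord64: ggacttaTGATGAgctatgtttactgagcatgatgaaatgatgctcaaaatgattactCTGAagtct
Snord2: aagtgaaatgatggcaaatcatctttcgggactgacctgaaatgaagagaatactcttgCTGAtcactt

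The last 3 are the H/ACA genes of the same kind, at chr7:141448803-141448939 (plus strand), chr4:132309941-132310069 (plus) and chr16:23110756-23110933 (plus).
Snora52: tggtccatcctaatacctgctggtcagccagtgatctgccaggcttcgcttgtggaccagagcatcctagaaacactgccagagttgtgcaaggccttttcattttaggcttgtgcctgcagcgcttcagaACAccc
Snora44: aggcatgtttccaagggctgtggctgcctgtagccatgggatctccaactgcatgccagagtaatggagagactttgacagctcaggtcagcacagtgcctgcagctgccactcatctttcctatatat
Snora81: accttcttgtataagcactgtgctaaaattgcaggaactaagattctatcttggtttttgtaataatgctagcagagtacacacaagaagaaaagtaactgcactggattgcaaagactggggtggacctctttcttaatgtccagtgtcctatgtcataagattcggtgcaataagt

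All 62 genes matched a GENCODE transcript, and the motifs mostly followed the class named in the description. On the transcript strand, TGATGA lay in the first 20 bases of 23 of 38 C/D and 0 of 24 H/ACA transcripts, against 21.7% of all 1507 GENCODE snoRNA transcripts. CTGA lay in the last 20 bases of 37 of 38 C/D and 3 of 24 H/ACA transcripts, against 35.4% of all. ACA lay in the last 8 bases of 22 of 24 H/ACA and 3 of 38 C/D transcripts, against 46.8% of all. The reverse strand was not searched, CTGA and TGATGA share no window, and a match is a description of the letters only. In Snora44 and Snora81 the 3 letters were not in that window, so these sequences carry no capitals. The intervals in the deposited table were shorter than the GENCODE transcripts by a median of 11 bases, and in 24 genes by at least 15. The largest gap was 68 bases, in Snora61, an H/ACA gene of the Snhg12 host.

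The captured nuclei were first checked by markers of cell types. For each of the 11 Müller glia markers the Positive libraries stood higher than both Input libraries, as they did in 16.7% of all genes. The median log2 fold change of these markers was 0.44, and 0 were called. Of 6 rod markers 4 had values above 0 (median 0.02), and of 5 bipolar cell markers 5 had values below 0 (median -0.32). Cone markers had values above 0 in 2 of 4 (median -0.05), amacrine cell markers in 1 of 4 (-0.08) and horizontal cell markers in 1 of 3 (-0.19). Values above 0 were also found in 3 of 4 pigment epithelium markers (median 1.21), 4 of 4 endothelial markers (0.70), 4 of 5 microglia markers (0.34) and 4 of 5 ganglion cell markers (0.26). Their levels cannot be read from these relative values, and their part in the snoRNA values was not tested. In libraries of mixed nuclei, fewer nuclei of a type and less RNA per nucleus cannot be told apart.

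No snoRNA gene was called higher or lower in Positive nuclei: 0 of the 62 passed limma at an adjusted p under 0.05, in a comparison that called 0% of all genes in either direction. The lowest adjusted p among them was 0.323, for Snord12. A limma fit that treats animals as a random block called 11 of all genes, 0.0244% higher and 0.0426% lower, and again 0 of the 62, whose lowest adjusted p was 0.0987. At an unadjusted p under 0.05, 2 were higher (3.23%) and 4 lower (6.45%), where all genes gave 6.45% higher and 7.76% lower. In 4 genes every Positive library was higher than both Input libraries and in 8 every one was lower, which is 6.45% and 12.9% of the 62, beside 16.7% and 21.8% of all genes tested. Both shares were under the background, a difference that was not tested.

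The median log2 fold change of the 62 genes was -0.10, against -0.02 over all genes, and 43 of them (69.4%) had a value below 0, as did 53% of all genes. Only 29 of the 62 kept 1 sign, higher or lower, in every alternative run, a count not given here for all genes. Measured from the Input mean, the median was -0.15 in Positive 12, -0.07 in Positive 40 and -0.07 in Positive 55. Without Positive 12 the median moved to -0.051. At a size of 0.5 log2 units, 1 gene was higher and 7 were lower, or 1.61% and 11.3%, beside 5.43% and 4.9% of all genes. Of those 7, the 4 genes Snord17, Snord19, Snord34 and Snora30 had passed the low-value filter (a raw value of 5 or more in every library of a fraction) in 1 fraction only. Such genes made up 11 of the 62 (17.7%), against 4.57% of all genes. Among genes that passed in both fractions, 5.88% of snoRNA genes and 3.29% of all genes were lower by that size, and among those that passed in 1 the shares were 36.4% and 38.6%.

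**Figure D1:**
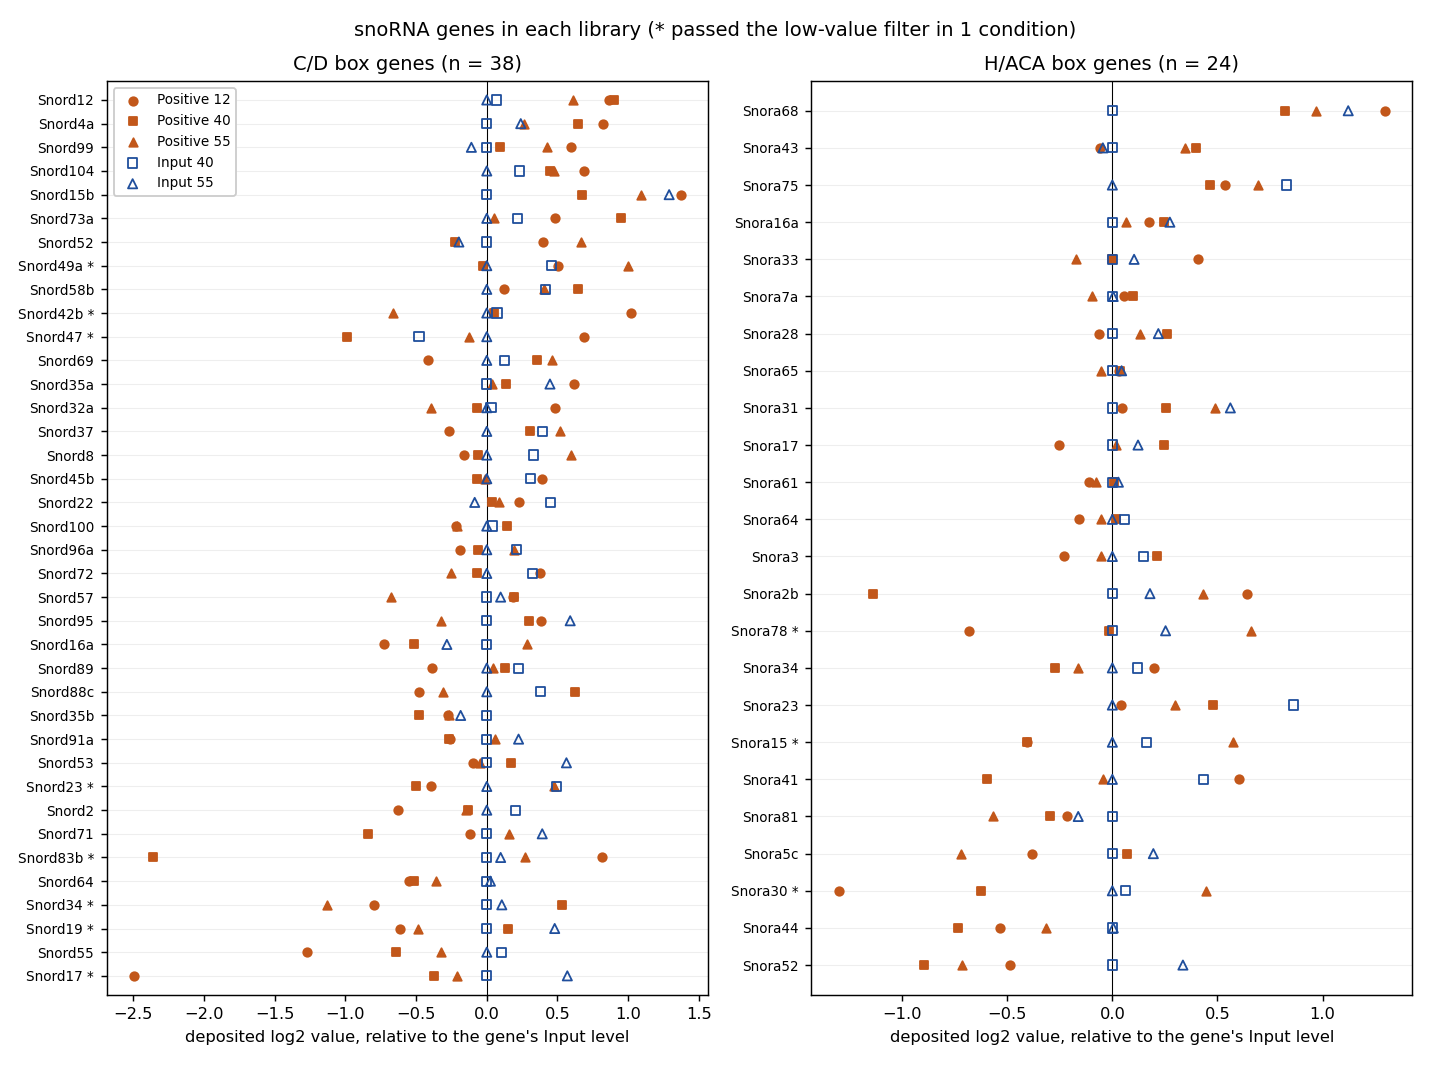
Deposited log2 values (x axis, relative to each gene's Input level) of the 38 C/D and 24 H/ACA genes, 1 row a gene, ordered by log2 fold change. Filled symbols are the Positive and open symbols the Input libraries, with shape giving the animal. In 50 rows the fractions overlap and in 12 they do not.

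Among the C/D genes, Snord12 stood highest. It lies in Zfas1, known as a noncoding transcript, which the table lists as 1500012F01Rik and types as protein-coding (Snord12 itself is Entrez gene 100217443, mm10 chromosome 2, 167065293 to 167065358). Its deposited log2 values were 0.86 in Positive 12, 0.90 in Positive 40 and 0.61 in Positive 55, against 0.07 in Input 40 and 0.00 in Input 55. All 3 Positive libraries were well above both Input libraries, and the means were 0.79 ± 0.16 (SD, n = 3) and 0.04 ± 0.05 (SD, n = 2). The log2 fold change of 0.76 (1.69-fold, SE 0.12) was not called (adjusted p = 0.323, limma). The host row had a log2 fold change of 0.14 (SE 0.09).

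Snord4a, which lies in the ribosomal protein gene Rpl23a, had log2 values of 0.82, 0.65 and 0.26 in Positive 12, 40 and 55 and of 0.00 and 0.24 in Input 40 and 55. Positive 55 lay barely above Input 55, and within animal 55 the difference was 0.02 while within animal 40 it was 0.65. The log2 fold change was 0.46 (SE 0.19, adjusted p = 0.364 in limma). Snord99, a gene of the Snhg12 host, had Positive values of 0.60, 0.10 and 0.42 and Input values of 0.00 and -0.11. Here Positive 40 stood closest to the Input libraries, and the log2 fold change was 0.43 (SE 0.17). Snord104 (Entrez gene 100216537, chromosome 11, 106500991 to 106501063), which had no host row, had Positive values of 0.69, 0.45 and 0.47 and Input values of 0.23 and 0.00. The Positive libraries were close to each other, and the log2 fold change was 0.42 (SE 0.12, adjusted p = 0.331 in limma).

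The fifth of the high C/D genes by the naming rule, Snord15b in the host Rps3, did not separate the fractions. Its Positive values were 1.37, 0.68 and 1.09, and its Input values were 0.00 in animal 40 and 1.29 in animal 55. The spread between the Input libraries was larger than the log2 fold change of 0.40 (SE 0.44), whose sign turned without Input 40 (-0.24) and after quantile normalization (-0.12). Within animal 40 the difference was 0.68 and within animal 55 it was -0.20.

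At the other end of the C/D class, Snord17, a long C/D RNA in the host Snx5, had the lowest log2 fold change, -1.31 (SE 0.77), and had passed the filter in 1 fraction only. Positive 12 stood at -2.49, far below Positive 40 at -0.37 and Positive 55 at -0.21, against 0.00 and 0.57 in the Input libraries. Without Positive 12 the log2 fold change was -0.58. Snord55 had Positive values of -1.27, -0.64 and -0.32 and Input values of 0.11 and 0.00. All Positive libraries lay lower, again with Positive 12 the lowest. Its log2 fold change was -0.80 (SE 0.29, adjusted p = 0.347 in limma).

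Snord64 is a C/D gene in the imprinted region between Snrpn and Ube3a, which is linked to Prader-Willi syndrome in human (Entrez gene 100217429, chromosome 7, 59978811 to 59978856). Its values were -0.55, -0.52 and -0.36 in Positive 12, 40 and 55 and 0.00 and 0.03 in Input 40 and 55, with little spread within either fraction. The means were -0.47 ± 0.10 (SD, n = 3) and 0.01 ± 0.02 (SD, n = 2), and the log2 fold change was -0.49 (SE 0.09, adjusted p = 0.329 in limma). Ipw, a noncoding RNA gene of the same region (chromosome 7, 59619158 to 59678878), stood at -0.62, -0.61 and -0.34 in the Positive and 0.00 and 0.20 in the Input libraries, a log2 fold change of -0.63 (SE 0.13). In both genes Positive 55 was the highest of the 3 and still below the Input libraries. Of the protein-coding genes of the region, Snrpn had 0.14 (SE 0.14), Ube3a -0.00 (SE 0.08) and the neuronal gene Ndn 0.47 (SE 0.16). Magel2 had -0.41 with an SE of 0.43. Of the 7 measured genes of the region 0 were called, and at an unadjusted p under 0.05 in limma 1 was higher (14.3%, against 6.45% of all genes) and 2 lower (28.6%, against 7.76%).

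Snord19 at -0.56 (SE 0.29), Snord34 at -0.52 (SE 0.52) and Snord83b at -0.47 (SE 1.00) had passed the filter in 1 fraction only, and their fractions overlapped. Snord2, in the translation factor gene Eif4a2, had Positive values of -0.63, -0.13 and -0.15 and Input values of 0.20 and 0.00, a log2 fold change of -0.40 (SE 0.19). Snord35b had -0.28, -0.48 and -0.27 against 0.00 and -0.18, a log2 fold change of -0.25 (SE 0.11). In both the fractions did not overlap, though the gap to the nearest Input library was small. Snord71, in Ap1g1, had -0.46 (SE 0.33), and Snord53 had -0.27 (SE 0.20), with overlapping fractions in both. Snord22 (U22), needed for small-subunit rRNA processing in Xenopus, was the 1 measured gene of a list of snoRNAs tied to rRNA cleavage, with a log2 fold change of -0.06 (SE 0.18).

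In the H/ACA class 0 of 24 genes had every Positive library above the Input libraries, and 3 (12.5%) had every one below, both under the 16.7% and 21.8% of all genes. Snora52 (Entrez gene 100217419, chromosome 7, 141448803 to 141448936) lies in Rplp2, which encodes a ribosomal stalk protein. Its values were -0.49, -0.90 and -0.72 in Positive 12, 40 and 55 and 0.00 and 0.34 in Input 40 and 55. Every Positive library lay well below the lower Input library, and the means were -0.70 ± 0.21 (SD, n = 3) and 0.17 ± 0.24 (SD, n = 2). The log2 fold change of -0.87 (0.548-fold, SE 0.17) was the lowest in the class and was not called (adjusted p = 0.331, limma). It was -0.90 within animal 40 and -1.05 within animal 55, and the host Rplp2 had -0.11 (SE 0.16).

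Snora44 (Entrez gene 100217418, chromosome 4, 132309953 to 132310069), of the Snhg12 host, had Positive values of -0.54, -0.74 and -0.32 and Input values of 0.00 in both animals. The log2 fold change was -0.53 (SE 0.14, adjusted p = 0.331 in limma), again with every Positive library lower. Snora81, the H/ACA gene that shares the host Eif4a2 with Snord2, had -0.22, -0.30 and -0.57 against 0.00 and -0.16, a log2 fold change of -0.28 (SE 0.14). Of the other low H/ACA genes by the naming rule, Snora5c had -0.44 (SE 0.25) and Snora41 -0.23 (SE 0.38), and their fractions overlapped.

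The H/ACA genes with the highest log2 fold changes did not separate the fractions. Snora68 had Positive values of 1.30, 0.82 and 0.97 and Input values of 0.00 and 1.12. As in Snord15b, the Input libraries differed by more than the log2 fold change of 0.47 (SE 0.37), which was -0.09 without Input 40 and -0.06 after quantile normalization. Snora43 had 0.25 (SE 0.16), Snora75, which lies in the nucleolin gene Ncl, 0.15 (SE 0.26), Snora16a 0.03 (SE 0.12) and Snora33 0.02 (SE 0.19). Other H/ACA genes varied little between libraries. Snora65, in Rpl12, had values of 0.03, 0.03 and -0.05 in the Positive and 0.00 and 0.04 in the Input libraries, the smallest residual SD of the 62 genes at 0.0455. Snora61 had a residual SD of 0.0512, and Snora64, in Rps2, one of 0.0759.

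The median log2 fold change was -0.12 for C/D and -0.10 for H/ACA genes, a difference of -0.03. The C/D minus H/ACA difference was 0.02 in Positive 12, -0.08 in Positive 40 and 0.02 in Positive 55, each measured from the Input mean, so that its sign was not shared by the Positive libraries. Within animals 40 and 55 it was -0.091 and -0.011. Leaving out Positive 12 made it -0.13, and leaving out Input 55 made it -0.089. It became 0.021 when Positive 55 was dropped and 0.026 when Input 40 was dropped. Of C/D genes 25 of 38 and of H/ACA genes 18 of 24 had a log2 fold change below 0. The middle 50% of values ran from -0.27 to 0.10 in C/D genes and from -0.18 to 0.00 in H/ACA genes.

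**Figure D2:**
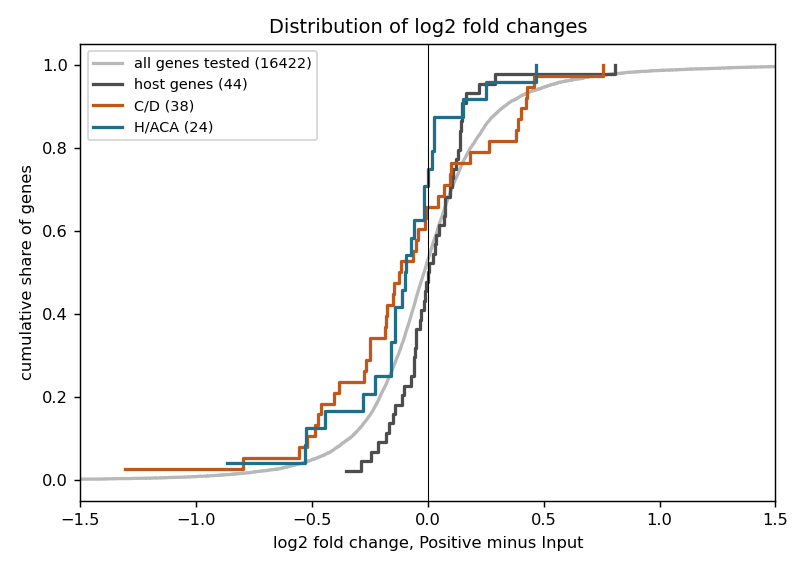
Cumulative share of genes (y axis) by log2 fold change, Positive minus Input (x axis, cut at 1.5 log2 units on each side), for C/D genes, H/ACA genes, their host genes and all genes tested. Both snoRNA curves lie left of the others over the lower part of the range, with medians of -0.12 and -0.10 against 0.00 for hosts and -0.02 for all genes.

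The spread between libraries of a fraction was wider by median in snoRNA genes than in hosts or in all genes, a difference that was not tested. The residual SD of the fit had a median of 0.366 log2 units in C/D genes, 0.213 in H/ACA genes, 0.111 in the 44 host genes and 0.129 over all genes. The Positive libraries of a gene spanned more than 1 log2 unit in 12 of the 62 genes (19.4%), against 8.06% of all genes and 0 of the 44 hosts. The widest was Snord83b in Rpl3, at 0.81, -2.36 and 0.27 in Positive 12, 40 and 55, with a residual SD of 1.39. Of these 12 genes 8 had passed the filter in 1 fraction only. Among the 51 genes that passed in both fractions the median residual SD was 0.247, against 0.123 over all genes that passed in both.

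Length and spread were compared across the 62 genes. Across genes, which are not independent replicates and share the libraries, Pearson's r between the row's length and the residual SD was 0.11 and Spearman's rho was -0.08. The counts behind the values are unknown, and the part of counting error in this spread was not tested. Between the fractions, the SE of a log2 fold change ran from 0.08 to 1.00 in the 62 genes with a median of 0.23, against a median of 0.11 over all genes.

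**Figure D3:**
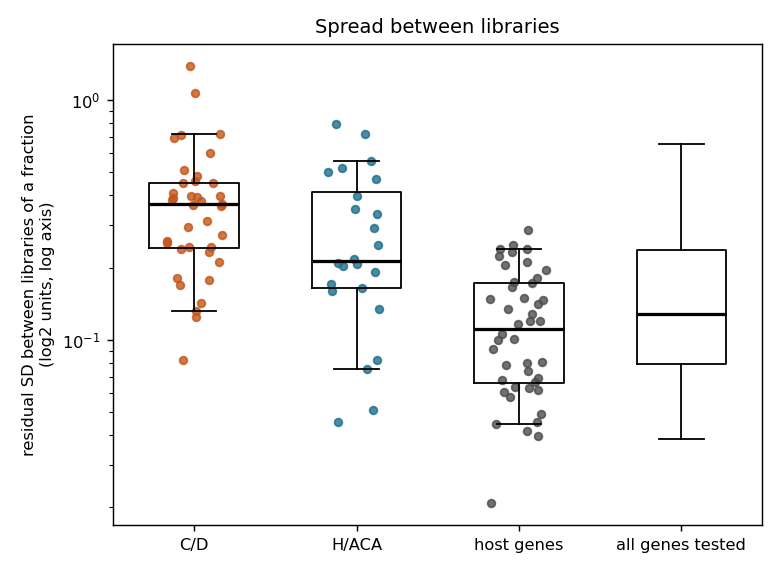
Residual SD between libraries of a fraction (y axis, log2 units on a log axis) for C/D genes, H/ACA genes, host genes and all genes tested. Points are genes, boxes give the median and the middle 50%, and whiskers leave out the lowest and highest 5%. The median is 0.366 in C/D and 0.213 in H/ACA genes against 0.111 in hosts.

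A host row on the same strand contained 56 of the 62 genes, in 44 hosts. The hosts' median log2 fold change was 0.00, with 23 above and 21 below 0, and 0 of 44 were called. In 7 hosts every Positive library was higher than both Input libraries and in 7 every one was lower. These are 15.9% each, beside 16.7% and 21.8% of all genes. At an unadjusted p under 0.05 in limma, 1 was higher (Snhg9) and 1 lower (Tsr1, at -0.29), or 2.27% each, against 6.45% and 7.76% of all genes. The snoRNA gene lay below its host in 34 of 56 pairs and above it in 22, with a median difference of -0.08. This difference was -0.12 in Positive 12, -0.11 in Positive 40 and 0.07 in Positive 55, so its sign was not shared by the Positive libraries. Measured from the Input mean, the hosts' own median was 0.06 in Positive 12, 0.07 in Positive 40 and -0.09 in Positive 55. The median of the 62 snoRNA genes was below 0 in each. Across the 56 pairs Pearson's r was -0.02, Spearman's rho was -0.04, and 25 pairs shared their sign. Since several genes share a host and all share the libraries, no test was made of these pairs.

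In 51 of the 56 pairs the snoRNA gene had a wider residual SD than its host, and in 42 of the 47 pairs in which the snoRNA gene passed the filter in both fractions. Whether the counting used strand, and how reads that overlap both a snoRNA gene and its host were assigned, is not given in the sources used here, and the part of host transcript in a snoRNA value was not tested.

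**Figure D4:**
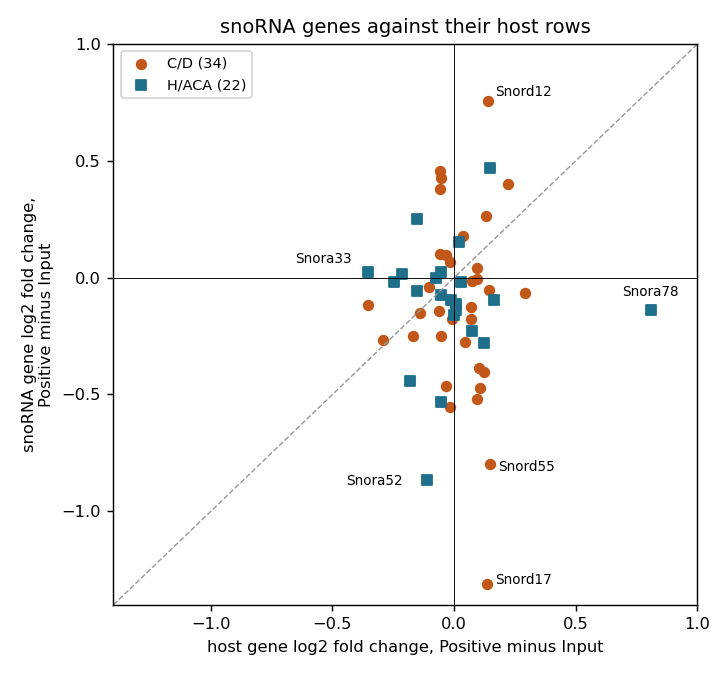
Log2 fold change of 56 snoRNA genes (y axis) against that of their host rows (x axis), both Positive minus Input, with the line of equal values dashed. Most hosts lie close to 0 while the snoRNA genes spread from -1.31 to 0.76.

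By the kind of host, the 20 genes in ribosomal protein genes had a median log2 fold change of -0.06 and the 11 in noncoding hosts one of 0.03. Of the 25 in other protein-coding genes 22 were below 0, with a median of -0.16, while the 21 hosts of that kind had a median of 0.01. The median of those 25 was -0.32 in Positive 12, -0.11 in Positive 40 and -0.13 in Positive 55, each measured from the Input mean. Snord12 counts among these 25 by the type in the table. This grouping was made from the hosts' symbols and gene types after values were seen, and no test was made of it. The highest host was Snhg9, at a log2 fold change of 0.81 (SE 0.22) with no overlap between fractions. Its H/ACA gene Snora78, which had passed the filter in 1 fraction only, had -0.14 (SE 0.41), with Positive values from -0.68 to 0.66.

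The 9 hosts with more than 1 member allow a comparison within a transcript, and 21 genes lie in them. Snhg12, a noncoding host, holds 4, and its own log2 fold change was -0.05 (SE 0.09). Its members ran from Snora44 at -0.53 (SE 0.14) over Snora61 at -0.07 (SE 0.08) and Snora16a at 0.03 (SE 0.12) to Snord99 at 0.43 (SE 0.17). Every Positive library of Snora44 lay below the Input libraries and every Positive library of Snord99 above them. Values within the same host thus lay on both sides, but neither gene was called. Of all genes tested, 21.8% had every Positive library below both Input libraries and 16.7% above.

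Rpl13a, whose snoRNAs are known in mouse cells for a part in lipid stress, holds Snord34, Snord32a and Snord35a, at -0.52 (SE 0.52), -0.01 (SE 0.27) and 0.04 (SE 0.24), and the host had 0.10 (SE 0.14). No one of these 4 values exceeded its SE. The longest run of bases that Snord35a and Snord35b share is 17, and whether any reads were shared between them was not tested. Eif4a2 had 0.12 (SE 0.08) with every Positive library above both Input libraries, while its members Snord2 and Snora81 had every Positive library below. Positive 55 of Eif4a2 lay barely above Input 55, at 0.05 against 0.02. Neither the host nor these members were called, and 16.7% (above) and 21.8% (below) of all genes were separated in this way. Rpl23a had -0.06 (SE 0.15), with Snord4a at 0.46 and Snord42b, which had passed the filter in 1 fraction only, at 0.10 (SE 0.50).

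Gnl3, a nucleolar GTPase gene, had -0.02 (SE 0.08), with Snord19 at -0.56 (SE 0.29) and Snord69 at 0.07 (SE 0.29). Gnb2l1, which encodes the ribosomal scaffold protein Rack1, had 0.07 (SE 0.09), with Snord95 at -0.18 (SE 0.29) and Snord96a at -0.13 (SE 0.15). Rps12 was itself low, at -0.35 (SE 0.16) with all Positive libraries below both Input libraries, while its members Snord100 and Snora33 had -0.12 (SE 0.14) and 0.02 (SE 0.19). Kansl2, a chromatin regulator gene, had 0.01 (SE 0.07), with Snora34 at -0.14 (SE 0.16) and Snora2b at -0.11 (SE 0.58). Those last 2 genes share a run of 19 bases. Snhg7 had -0.15 (SE 0.10), with Snora17 at -0.06 (SE 0.17) and Snora43 at 0.25 (SE 0.16).

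**Figure D5:**
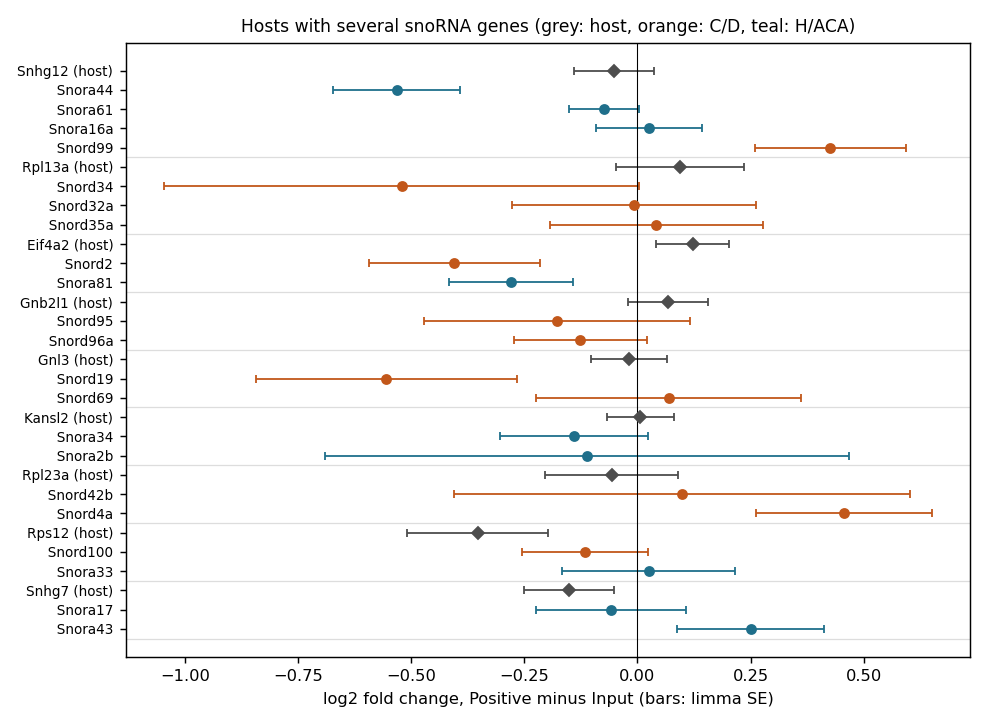
Log2 fold change, Positive minus Input (x axis), of the 9 hosts with more than 1 snoRNA gene (grey diamonds) and of their members (circles), with bars for limma's SE. Within Snhg12 the members run from -0.53 to 0.43 around a host value of -0.05.

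No gene for a protein of the snoRNA particles was called. Of the C/D core proteins, fibrillarin (Fbl), the methyltransferase, had a log2 fold change of -0.08 (SE 0.16), Nop56 -0.14 (SE 0.07), Nop58 0.15 (SE 0.12) and Nhp2l1, which encodes Snu13, 0.13 (SE 0.16). Nop56 lay below the Input libraries in every Positive library, and its intronic C/D gene Snord57 had -0.15 (SE 0.30). Of the H/ACA core proteins, Dkc1, the pseudouridine synthase, had -0.02 (SE 0.11), Nhp2 0.22 (SE 0.10), Nop10 0.19 (SE 0.20) and Gar1 0.04 (SE 0.11). Among these 8 genes Nhp2 alone had every Positive library above the Input libraries, and Nop56 alone had every one below. Of all genes tested, 16.7% lay above and 21.8% below in this way.

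The 9 measured assembly factors had a median of 0.01, from -0.14 for Znhit6 to 0.14 for Ruvbl1, with Ruvbl2 at 0.01, Naf1 at -0.00, Shq1 at -0.03, Nufip1 at 0.02, Znhit3 at 0.01, Rpap3 at -0.04 and Pih1d1 at 0.05. Of the 17 genes of these 3 lists 0 had an unadjusted p under 0.05 in limma. The 17 genes of nucleolar partners and the small-subunit processome had a median of -0.04 and 0 called, with 4 lower at an unadjusted p under 0.05: Nol6 (-0.22), Bms1 (-0.22), Utp20 (-0.22) and Dhx37 (-0.20). These are 23.5% of the list, against 7.76% of all genes, with 0 higher. The 14 genes of RNA polymerase I transcription had a median of -0.03, with 1 higher (Polr1c, 0.28, SE 0.08) and 1 lower (Taf1a, -0.29, SE 0.09) at an unadjusted p under 0.05, 7.14% each against 6.45% and 7.76% of all genes, and 0 called. The 20 genes of small RNA trimming and export had a median of 0.04, with 1 higher (Exosc7, 0.22) and 1 lower (Dis3, -0.23) at that threshold, 5% each, and 0 called. The 7 genes of Cajal bodies and telomerase had a median of -0.09 and 0 called.

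Small Cajal body RNAs, which guide modification of spliceosomal RNAs, are typed otherwise in the table and are no members. Of the 3 measured, Scarna6 had Positive values of -1.54, -0.59 and -0.16 and Input values of 0.58 and 0.00, a log2 fold change of -1.06 (SE 0.46). Scarna13 had 0.23 (SE 0.26) and Scarna17 0.12 (SE 0.43), and their fractions overlapped. Among the rows left out by position, AF357355 on chromosome 12 had passed the filter in 1 fraction only. It stood at -1.71, -1.86 and -1.86 in Positive 12, 40 and 55 and at -0.03 and 0.00 in Input 40 and 55. Positive 40 and 55 shared the gene's lowest value, and whether a floor limits the log2 fold change of -1.80 was not tested. AF357355 was 1 of the 11 genes called by limma with animals as a random block (adjusted p = 0.014), and without the block its adjusted p was 0.0542. AF357359 had -0.39, and the nearest gene kept on that chromosome, Snora28, had -0.00 (SE 0.13). The rows left out on chromosome X, Snora69 and Snora70, had -0.22 and -0.11.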

How the data were processed

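Nuclear RNA-seq of 5 libraries was grouped by the fraction and animal number in the titles. The authors deposited log2 values, normalized per gene to an Input level. RefSeq gene models were used, per the file headers, and a row needed a raw value of 5 or more in all libraries of 1 condition. Per the submitters' processing notes the build was mm10 and DESeq was used. No aligner or counter is given in the sources used here. No counts or depths are held, so no counting interval was computed.

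Positive was compared with Input over 16422 genes (1 row per symbol) with limma 3.58.1 in R 4.3.3, with 3 residual degrees of freedom, no variance trend, two-sided tests, Benjamini-Hochberg adjustment over all genes and a threshold of 0.05. The script was tested on simulated data. Exact permutation of 3 against 2 libraries cannot go under p = 0.1 and was not used. Libraries of animals 40 and 55 are paired by the labels (deviations from the fraction's mean correlated at r = 0.174 and r = 0.195 across genes). With 2 Input libraries, their deviations mirror each other, so these r values are not separate checks of the pairing. The main fit left this pairing out. In the fit with animals as a random block, limma's consensus correlation within an animal was 0.514. Hosts are the shortest rows that contain a gene on its strand. Figures used matplotlib 3.10.9.

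The members, lists and tests were chosen with earlier results of these data known. Named genes are the 5 highest and 5 lowest of each class that passed the filter in both conditions, hosts with more than 1 member, and the fixed lists. Genes whose fractions do not overlap, genes with the smallest or widest spread, genes passing in 1 fraction only, other snoRNA hosts and single members of the other lists were chosen after their values were seen. No gene set test was made. Some host genes and sequences are not reported here.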

Additional observations from a re-analysis of the deposited data

How the results depend on the processing

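The result of 0 snoRNA genes called held in each of the 13 alternatives run, while the count over all genes was 0 in each but the random replicate block, which called 11. After quantile normalization the medians were -0.20 for all 62 snoRNA genes, -0.21 for C/D and -0.18 for H/ACA genes. The snoRNA genes without overlap were then 2 above and 6 below, out of 62. Over all genes tested the shares were 11.6% above and 15.2% below. With the fixed replicate block, to which the unpaired Positive 12 adds nothing, the snoRNA median was -0.051, the C/D median -0.16 and the C/D minus H/ACA difference -0.13. Leaving out each library gave a snoRNA median of -0.15 to -0.051, a C/D median of -0.18 to -0.064, an H/ACA median of -0.10 to -0.04 and a C/D minus H/ACA difference of -0.13 to 0.026. The host median ran from -0.02 to 0.08 and the snoRNA minus host median from -0.13 to -0.03. Leaving out 1 library widens what counts as no overlap, and gave 6 to 9 of the 62 snoRNA genes above and 14 to 18 below. Over all genes tested the shares were then 20.6% to 27.6% above and 26% to 36.1% below. The count of pairs with a wider snoRNA residual SD was 44 to 52 of 56 without 1 library, 48 after quantile normalization and 42 with the fixed replicate block. The cause of these shifts was not tested. Of the 56 named genes, 66 of 727 alternative values had the other sign, none of them called. Of the 20 highest and lowest snoRNA genes by the naming rule, 7 changed sign in at least 1 alternative. These were Snord15b, Snord53, Snora16a, Snora33, Snora41, Snora68 and Snora75. The alternatives on overlap and spread were chosen after seeing the data. Depth is unknown, so what it limits cannot be given.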
